A study of Mus musculus with 35 samples.

Results

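The T cell receptor complex and its coreceptors were followed through 9 genes, taken by name from the 21203 genes of the deposited table: Cd3e, Cd3d, Cd3g and Cd247 of the CD3 signalling module, the CD8 chains Cd8a and Cd8b1, the coreceptor Cd4, the kinase Lck and the adhesion receptor Cd2. All 9 were in the table and among the 17131 genes that passed the filter on low counts. Cd3g, Cd8b1 and Cd2 lay at 3 estimated counts or fewer in 15, 14 and 17 of the 34 libraries. Cd3e did so in 5 and held at most 7 counts in any Sham or PBS library. All of these genes passed through the groups in which they were higher. Their passing is no result in itself, and the counts of members called below lean on them. The data are RNA sequencing of brain tissue from male C57BL/6NCrl mice, aged 8 to 9 weeks at the start, after closed head injury, an impact on the intact skull. Injured mice were treated on day 5 with PBS, with mesenchymal stem/stromal cells (MSC), or with MSCs transfected with synthetic interleukin-4 mRNA (IL-4 MSC), given into the left hippocampus. Tissue was taken at 1 week post injury (wpi), 2 days after treatment, or at 3 wpi, 16 days after treatment. Each treatment had 5 mice at each time, except PBS at 3 wpi with 4, since 1 library of that group was marked as excluded in its label and was not used here. The 5 Sham mice had neither the impact nor an injection, so injury and needle track cannot be told apart in a comparison with Sham, and all such comparisons share these mice. Of these, 2 Sham libraries belonged to week 1 and 3 to week 3. The MSCs were primary cells of C57BL/6N mice, bought as 1 lot, and the tissue was taken around the injection site of perfused brains and is labelled as left cortex.

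The estimated counts of a library summed to between 29838423 and 41554322, and 3 counts correspond to 0.0722 to 0.101 CPM (the estimated counts of a gene per 1000000 of the library's total). Replicates of a group correlated at Pearson r of 0.993 to 0.999 on log2 CPM over all genes and differed by more than counting noise in each of the 66 pairs, with a chi-square of 3.27 to 52.4 per gene of over 20 counts, so no library was counted as a duplicate. Markers of striatal projection neurons, a cell type outside the labelled cortex, varied widely. The summed level of 13 such genes ran from 470.0 to 3740 CPM. That of 10 cortex markers ran from 1389 to 1893 CPM, with none of them at 0. A number in the brackets of each label took 1 value per treatment and time, and what it marks cannot be told apart from the groups. In bulk tissue, fewer T cells and less of a transcript per cell cannot be told apart either. Mice are numbered 0 to 4 as in the labels, and the values of a group are given in that order.

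T cells recognise peptides held by major histocompatibility proteins through the T cell receptor, whose antigen-binding chains have no signalling part of their own. The CD3 epsilon, delta and gamma chains (Cd3e, Cd3d, Cd3g) and the zeta chain (Cd247) carry the motifs that Lck phosphorylates when the receptor is engaged. Lck is held by the coreceptors: CD8, a pair of chains from Cd8a and Cd8b1 on cytotoxic T cells, binds class I molecules, and CD4 on helper T cells binds class II. CD2 is an adhesion receptor of T and natural killer cells. Few T cells are found in the parenchyma of healthy brain, and they can enter it after injury.

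The 4 promoters below are shown because Cd3d had a far higher level in uninjured tissue than its neighbours Cd3e and Cd3g, while Cd8a is the coreceptor gene with the most calls. On chromosome 9 (GRCm38, GENCODE) lie Cd3g at 44969572 to 44980431 on the minus strand, Cd3d at 44981786 to 44987339 on the plus strand and Cd3e at 44998740 to 45009627 on the minus strand. The starts of Cd3g and Cd3d point away from each other, 1355 bp apart. Cd8b1 (71322788 to 71337494) and Cd8a (71373427 to 71379173) lie on chromosome 6 on the plus strand with 50639 bp between their starts, and Cd4 (124864692 to 124888221, minus strand) is on the same chromosome. Cd247 is on chromosome 1 (165788681 to 165877277, plus strand), Cd2 on chromosome 3 (101275899 to 101287939, minus strand) and Lck on chromosome 4 (129548344 to 129573641, minus strand). Cd247 overlaps the protein-coding gene Pou2f1 on the other strand. Whether counting used the strand is not given in the sources used here, so reads of that overlap could not be told apart. RefSeq promoters (GRCm38.p6) were matched for 6 of the 9 genes, not for Cd8b1, Cd4 or Cd2. Each sequence runs 5′ to 3′ in the direction of its gene, from 250 bases before the start through its first 30 bases, at chr9:45009582-45009861 for Cd3e and chr9:44980402-44980681 for Cd3g (both minus strand), chr9:44981536-44981815 for Cd3d and chr6:71373177-71373456 for Cd8a (both plus strand). Capitals mark matches, on either strand, to any of 4 sets of letters searched. The first 2 were TGTGGT, the core that RUNX factors bind, and AGGAAG, the core of the ETS family. The others were AGATAA, bound by factors of the GATA family, and those of the box close to many transcription starts, spelled TATAAA.
Cd3e: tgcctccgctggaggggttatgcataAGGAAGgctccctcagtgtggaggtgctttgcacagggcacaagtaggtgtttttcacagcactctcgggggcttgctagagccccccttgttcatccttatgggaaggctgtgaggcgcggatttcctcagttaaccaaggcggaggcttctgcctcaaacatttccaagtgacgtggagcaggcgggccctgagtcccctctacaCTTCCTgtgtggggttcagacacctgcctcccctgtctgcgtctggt
Cd3g: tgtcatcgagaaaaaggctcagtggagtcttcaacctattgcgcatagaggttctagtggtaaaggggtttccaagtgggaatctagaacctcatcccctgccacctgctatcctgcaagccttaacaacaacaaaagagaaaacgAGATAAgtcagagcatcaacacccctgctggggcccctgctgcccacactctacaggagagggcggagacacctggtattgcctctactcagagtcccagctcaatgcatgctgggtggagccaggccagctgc
Cd3d: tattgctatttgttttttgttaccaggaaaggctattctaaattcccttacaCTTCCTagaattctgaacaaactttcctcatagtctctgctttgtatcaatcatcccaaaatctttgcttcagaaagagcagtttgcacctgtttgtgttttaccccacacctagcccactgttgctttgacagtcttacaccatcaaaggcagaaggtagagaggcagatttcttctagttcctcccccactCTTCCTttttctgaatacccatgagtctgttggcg
Cd8a: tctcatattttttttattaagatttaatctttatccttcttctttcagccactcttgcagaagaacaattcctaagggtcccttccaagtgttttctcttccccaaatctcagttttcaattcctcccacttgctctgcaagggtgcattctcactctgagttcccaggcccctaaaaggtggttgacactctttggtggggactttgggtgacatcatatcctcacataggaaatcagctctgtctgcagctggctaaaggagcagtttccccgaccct
Of all 32851 promoters of this length, 15.6% hold the RUNX letters, 32.9% the ETS letters, 10.7% the GATA letters and 13.1% those of the box. Cd3e and Cd3d each hold 2 matches to the ETS letters and Cd3g holds 1 to the GATA letters, while none of these letters were found in the Cd8a window.

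Per length, the 9 genes started from unequal levels in Sham tissue. Cd3d was the highest CD3 gene, at 2.93 ± 0.844 TPM (transcripts per 1000000, SD, n = 5), against 0.106 ± 0.0833 TPM for Cd3e and 0.0823 ± 0.117 TPM for Cd3g. Cd4 (2.18 ± 1.71 TPM) and Lck (1.12 ± 0.207 TPM) also had a clear level in Sham, followed by Cd247 (0.604 ± 0.336 TPM) and Cd8a (0.242 ± 0.0421 TPM). Cd8b1 was at 0.0926 ± 0.0864 TPM and Cd2 at 0.0251 ± 0.0345 TPM. So Cd3e, Cd3g, Cd8b1 and Cd2 sat near the limit of detection without injury, and Cd3d, Cd4 and Lck did not.

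The genes fell into 3 kinds of pattern. Cd3e, Cd3g, Cd8a, Cd8b1 and Cd2 were low in Sham mice and high in MSC and IL-4 MSC mice of 3 wpi. Cd3d, Cd247 and Lck had a level in every group on which smaller differences lay. Cd4 had its highest mean in IL-4 MSC mice of 3 wpi and ran from low to high within Sham itself. Over 15 comparisons between groups, Cd3g and Cd8a passed the test in 7 each, Cd3e and Cd2 in 6 each, Cd8b1 and Cd4 in 5 each, Lck in 3 and Cd3d and Cd247 in none, each time as higher in the later, treated or IL-4 group.

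**Figure D1:**
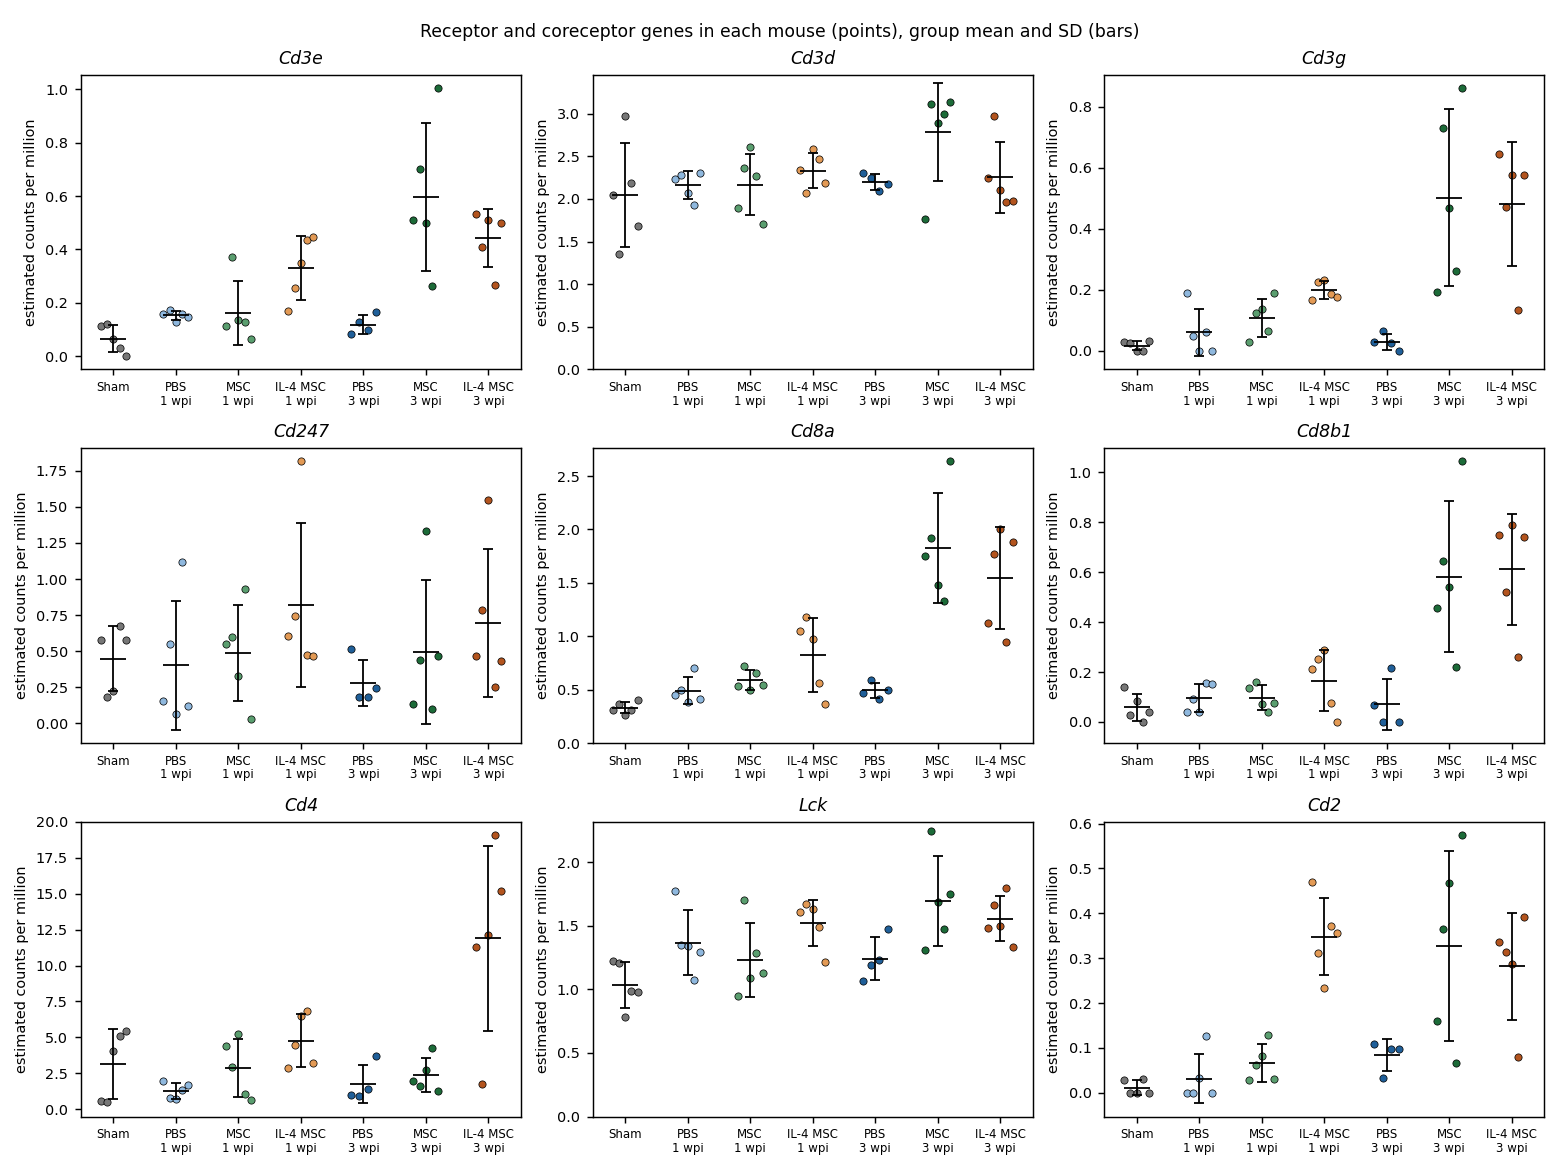
Level of each of the 9 genes in CPM (vertical axis) in every mouse (points) of the 7 groups, with the group mean and SD (n = 5, PBS 3 wpi n = 4). Cd8a lay between 0.264 and 0.402 CPM in Sham mice and between 1.33 and 2.64 CPM in MSC mice of 3 wpi, while Cd3d lay between 1.35 and 3.14 CPM over all groups.

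At 1 wpi, the comparisons with Sham ask what injury and each injection had done within days. Receptor genes were higher in IL-4 MSC mice: 5 of the 9 (Cd2, Cd3g, Cd3e, Cd8a and Lck) passed edgeR's quasi-likelihood test as higher and none as lower, where 18.4% of all tested genes were higher. In PBS and in MSC mice of 1 wpi none of the 9 passed, beside 8.73% and 11% of all genes higher (5.03% and 6.89% lower). At an unadjusted p under 0.05 edgeR had 3 members in PBS mice, Cd3e and Lck higher and Cd4 lower. In MSC mice it had 4, all higher, and DESeq2 called 0 in PBS and 1 in MSC mice. The share of all genes at an unadjusted p was not taken, here or below, so these counts stand without a background. Without MSC mouse 0, Cd3g passed in MSC mice (2.62, adjusted p = 0.0384). Cd2 stood at 0.469, 0.311, 0.233, 0.372 and 0.356 CPM in IL-4 MSC mice and at 0.0279, 0, 0, 0.0307 and 0 CPM in Sham. All 5 treated mice were above every Sham mouse, and 57 counts against 2 in Sham gave a ratio of 29.9 (7.9 to 253), a 95% exact interval for counting error only (adjusted p = 1.45e-05 with edgeR). Cd3g, with 33 counts against 3, gave a ratio of 11.5 (3.62 to 58.8), and its IL-4 MSC mice, at 0.168, 0.226, 0.233, 0.186 and 0.178 CPM, were again above all Sham mice. Cd3e was at 0.168, 0.254, 0.349, 0.434 and 0.445 CPM against 0.111, 0.12, 0.065, 0.0307 and 0 CPM in Sham. Its groups did not overlap, and the log2 fold change (± SE) was 2.14 ± 0.47 (adjusted p = 0.000434), or 1.41, adjusted p = 0.0436 against the 2 Sham mice of week 1, which were the highest Sham mice in Cd3e. Cd8a was at 1.05, 1.18, 0.971, 0.565 and 0.362 CPM against 0.312, 0.364, 0.264, 0.311 and 0.402 CPM in Sham. Here the groups overlapped through mouse 4, and the log2 fold change was 1.24 ± 0.28 (adjusted p = 0.000616). IL-4 MSC mice 3 and 4, the highest of their group in Cd3e, were the lowest in Cd8a and in Cd8b1 (0.0777 and 0 CPM). Cd8b1 (1.42 ± 0.75, adjusted p = 0.147) and Cd4 (0.56 ± 0.57, adjusted p = 0.485) did not pass. The change of Lck was small (0.48 ± 0.16, adjusted p = 0.0206) and no longer passed without Sham mouse 2 (0.43, adjusted p = 0.0523) or against the week 1 Sham mice alone (0.25, adjusted p = 0.381). Against those 2 mice, both low in Cd4, Cd4 was higher in IL-4 MSC (3.12, adjusted p = 0.00441) and in MSC mice (2.41, adjusted p = 0.0475).

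Natural killer cell markers were also higher in IL-4 MSC mice of 1 wpi than in Sham. Of 8 listed markers 4 were tested, and 3 of these (Klri2, Klrb1c and Klra8) were higher in IL-4 MSC mice than in Sham, against 1 of 4 in MSC and none in PBS mice. Of all genes, 18.4%, 11% and 8.73% were higher in these comparisons. The summed level of the 8 ran from 0.619 to 0.885 CPM in Sham and from 1.76 to 4.14 CPM in IL-4 MSC mice of 1 wpi, and Ncr1, Klra8, Klra4 and Klra3 were at 0 in all Sham libraries. Klra8 was also at 0 in all PBS libraries of 1 wpi, so it passed the filter through groups in which it was higher. The count of 3 of 4 thus leans on the filter and is no result in itself. The Klra genes are a family of similar sequence that can exchange reads. Of the markers of border macrophages, 8 of 10 were higher in IL-4 MSC mice (4 in MSC and 3 in PBS mice), with sums of 31.2 to 52.5 CPM in Sham against 207 to 266 CPM. Their part in the level of Cd2 and the other members was not tested.

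At 3 wpi, 6 of the 9 genes were higher in MSC mice than in Sham and 7 of the 9 in IL-4 MSC mice, while in PBS mice none passed. Of all genes, 1.11%, 2.76% and 0.0233% were higher in these 3 comparisons. PBS mice had 1 member at an unadjusted p under 0.05 by edgeR, Cd2, and DESeq2 called 0. Cd3e, Cd3g, Cd8a, Cd8b1, Cd2 and Lck made up the 6, and Cd4 was the additional gene of IL-4 MSC mice. Cd3e, Cd3g, Cd8b1 and Cd2 had passed the filter through the groups in which they were higher, so these counts lean on them. Cd8a stood at 1.75, 1.92, 1.48, 1.33 and 2.64 CPM in MSC mice and at 1.13, 1.77, 2, 0.948 and 1.88 CPM in IL-4 MSC mice. All 10 were above the highest Sham mouse, with log2 fold changes of 2.46 ± 0.26 (adjusted p = 1.63e-06) and 2.21 ± 0.27 (adjusted p = 1.34e-05). Cd8b1, the beta chain, was at 0.458, 0.645, 0.54, 0.22 and 1.04 CPM in MSC mice and at 0.747, 0.522, 0.789, 0.26 and 0.739 CPM in IL-4 MSC mice. In Sham it was at 0.14, 0.0296, 0.0832, 0 and 0.0394 CPM, below every treated mouse, and the log2 fold changes were 3.24 ± 0.63 (adjusted p = 0.00482) and 3.32 ± 0.62 (adjusted p = 0.00278).

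The CD3 chains Cd3e and Cd3g were higher together with the CD8 chains. Cd3e was at 0.511, 0.702, 0.499, 0.262 and 1.01 CPM in MSC mice and at 0.532, 0.408, 0.511, 0.268 and 0.498 CPM in IL-4 MSC mice of 3 wpi, above all Sham mice. Its log2 fold changes were 3.05 ± 0.43 (adjusted p = 8.54e-05) and 2.62 ± 0.45 (adjusted p = 0.00121). Cd3g was at 0.192, 0.73, 0.468, 0.262 and 0.862 CPM in MSC mice and at 0.644, 0.471, 0.575, 0.134 and 0.576 CPM in IL-4 MSC mice. Against 3 counts over all Sham libraries these groups held 85 and 83 counts, ratios of 29.9 (9.89 to 148) and 27.5 (9.1 to 136). Cd2 held 55 and 49 counts against 2, ratios of 29 (7.66 to 246) and 24.4 (6.4 to 207). Its lowest mice were MSC mouse 3 at 0.0654 CPM and IL-4 MSC mouse 3 at 0.0805 CPM, near 3 counts. Against the 3 Sham mice of week 3 alone, all 6 genes passed again in both treatments, with Cd3e at 4.09, adjusted p = 0.000579 in MSC and 3.66, adjusted p = 0.00331 in IL-4 MSC mice.

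MSC mouse 4 of 3 wpi was the highest mouse of its group in Cd3e, Cd3g, Cd8a, Cd8b1 and Cd2, and it also stood apart in markers of other cells. Its summed level of 10 border macrophage markers was 81 CPM, against 35.9 to 44.4 CPM in the other 4 mice, and that of 8 dendritic cell markers was 53.9 CPM against 42.2 to 46.4 CPM. Its 8 B cell markers summed to 6.92 CPM against 1.21 to 3.56 CPM, and the 8 genes that accompany CD8 cells to 9.35 CPM against 2.16 to 3.29 CPM. Without this mouse Cd3e (2.78, adjusted p = 0.000545), Cd3g (4.33, adjusted p = 0.000782), Cd8a (2.29, adjusted p = 1.15e-05), Cd8b1 (2.92, adjusted p = 0.0325) and Cd2 (4.15, adjusted p = 0.00621) were still higher in MSC mice than in Sham.

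Lck differed less, from 1.23, 1.2, 0.78, 0.984 and 0.976 CPM in Sham to 1.31, 2.25, 1.69, 1.47 and 1.75 CPM in MSC mice and 1.48, 1.66, 1.5, 1.8 and 1.34 CPM in IL-4 MSC mice of 3 wpi. None of these mice overlapped with Sham, yet the log2 fold changes were 0.69 ± 0.16 (adjusted p = 0.0228) and 0.57 ± 0.16 (adjusted p = 0.0395). The call in MSC mice was lost without Sham mouse 2 (0.61, adjusted p = 0.0905) or 3 (0.66, adjusted p = 0.0772) and without MSC mouse 1 (0.56, adjusted p = 0.0875) or 4 (0.68, adjusted p = 0.0811). That in IL-4 MSC mice was lost in 9 of 10 fits without 1 mouse, all but the fit without IL-4 MSC mouse 1, with log2 fold changes of 0.48 to 0.63 and adjusted p of 0.0501 to 0.121. Fitted on the 2 groups alone, on the same genes, neither passed (0.69, adjusted p = 0.206 for MSC and 0.57, adjusted p = 0.122 for IL-4 MSC mice).

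Cd3d and Cd247 passed in no comparison. Cd3d was at 2.04, 1.35, 2.97, 2.18 and 1.68 CPM in Sham and at 1.77, 3.11, 2.89, 3 and 3.14 CPM in MSC mice of 3 wpi, with a difference of 0.44 ± 0.16 (adjusted p = 0.235) on the log2 scale. MSC mouse 0 lay inside the Sham range and 3 of the other 4 above it. In TPM, where lengths are taken into account, the mean of MSC mice of 3 wpi exceeded that of Sham by 1.03 for Cd3d, 0.849 for Cd3e, 1.2 for Cd3g, 1.04 for Cd8a and 0.824 for Cd8b1. For Cd3d this difference lay on the high Sham level given above. In IL-4 MSC mice of 3 wpi the same TPM differences were 0.257, 0.598, 1.3, 0.832 and 0.861. Cd247 ranged from 0.0313 to 1.81 CPM over all mice, and the Sham range of 0.183 to 0.674 CPM overlapped with every other group.

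**Figure D2:**
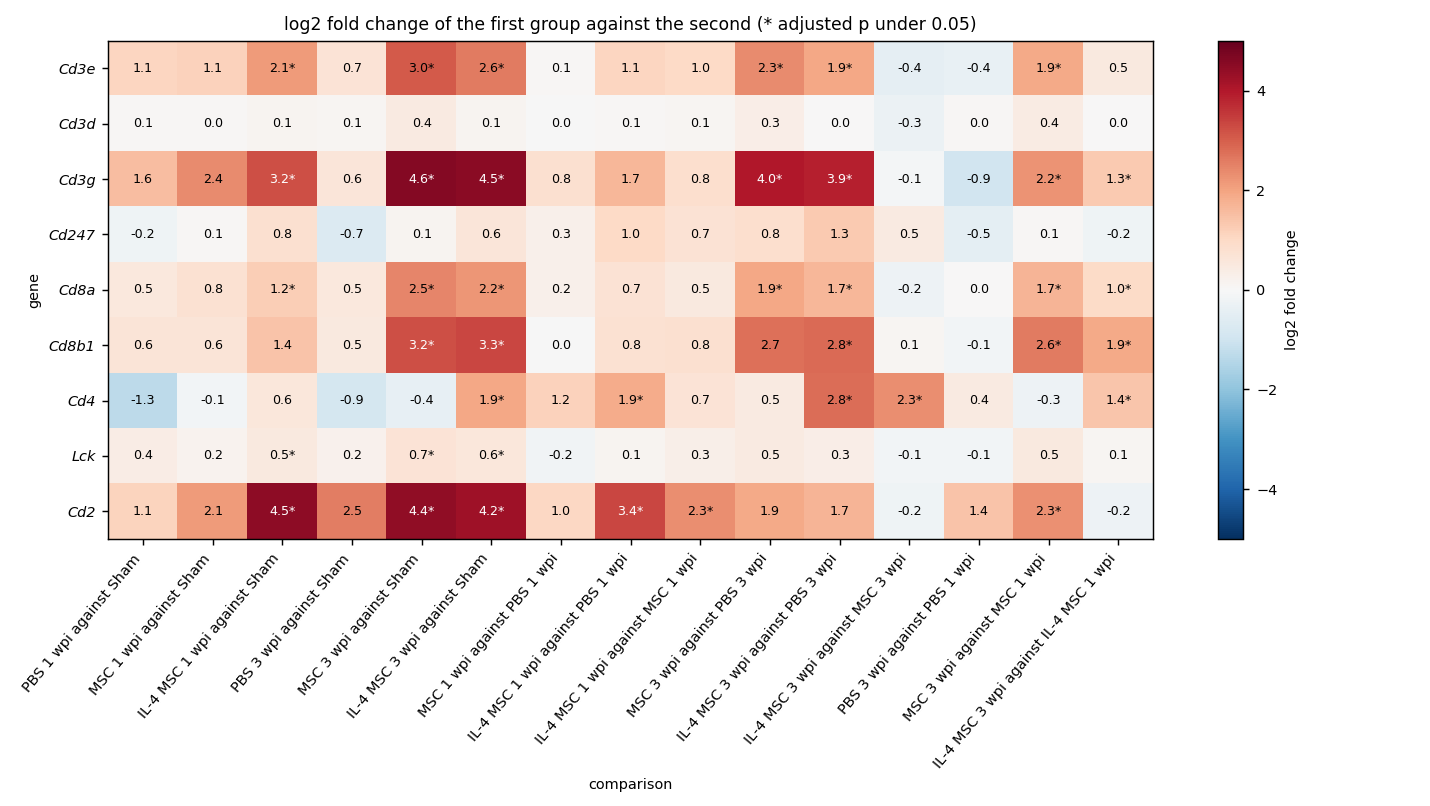
Fitted log2 fold change of each of the 9 genes (rows) in the 15 comparisons between groups (columns), as colour and printed value, with an asterisk where the adjusted p was under 0.05. Cd3e, Cd3g, Cd8a, Cd8b1 and Cd2 are marked together in MSC and IL-4 MSC mice of 3 wpi against Sham, while Cd4 is marked only where IL-4 MSC mice are the first group (5 comparisons) and Cd3d and Cd247 nowhere.

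Between treatments at 1 wpi, Cd2 separated IL-4 MSC mice from the others. It was above the highest PBS mouse (0.126 CPM) and the highest MSC mouse (0.129 CPM) in all 5 IL-4 MSC mice, with log2 fold changes of 3.35 ± 0.64 (adjusted p = 0.000267) and 2.31 ± 0.56 (adjusted p = 0.00473). Against PBS 2 of 9 members were higher, Cd2 and Cd4, beside 11.2% of all genes, and against MSC only Cd2, beside 7.66%. Cd3e (1.06 ± 0.41, adjusted p = 0.0703), Cd3g (1.65 ± 0.63, adjusted p = 0.0695) and Cd8a (0.72 ± 0.27, adjusted p = 0.0596) missed the threshold against PBS. Each of these 3 passed in some fits without 1 mouse. They were Cd3e without IL-4 MSC mouse 0 (1.23, adjusted p = 0.0407), Cd3g without PBS mouse 0 (2.60, adjusted p = 0.0131), and Cd8a without PBS mouse 3 (0.88, adjusted p = 0.0327) or IL-4 MSC mouse 3 (0.85, adjusted p = 0.0342) or 4 (0.93, adjusted p = 0.00814). Between MSC and PBS mice no member passed, beside 0.123% of all genes higher. By edgeR 0 of the 9 had an unadjusted p under 0.05 there, and DESeq2 called 0.

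At 3 wpi, 3 of the 9 genes were higher in MSC than in PBS mice (Cd3e, Cd3g and Cd8a), where 0.0817% of all genes were higher, and 5 of the 9 were higher in IL-4 MSC than in PBS mice (those 3, Cd8b1 and Cd4), where 2.17% were. DESeq2 called 4 and 5. Cd8a was at 0.471, 0.588, 0.415 and 0.495 CPM in the 4 PBS mice, all below the lowest mouse of either cell treatment. Its log2 fold changes were 1.92 ± 0.27 (adjusted p = 0.00108) and 1.67 ± 0.27 (adjusted p = 0.00265), and it passed in each of the 9 fits without 1 mouse in both comparisons. Cd3g stood at 0.0273, 0.0644, 0.0241 and 0 CPM in PBS mice, 4 counts in all, below every mouse given cells, and the log2 fold changes were 3.99 ± 0.68 (adjusted p = 0.0073) and 3.90 ± 0.68 (adjusted p = 0.00345). Cd3e was at 0.082, 0.129, 0.0965 and 0.164 CPM in PBS mice, again with no overlap, and its log2 fold changes were 2.35 ± 0.43 (adjusted p = 0.00914) and 1.91 ± 0.44 (adjusted p = 0.0134). Cd8b1, at 0.0699, 0, 0.217 and 0 CPM in PBS mice, passed in IL-4 MSC mice (2.83 ± 0.63, adjusted p = 0.0108) and not in MSC mice (2.75 ± 0.63, adjusted p = 0.105), although every mouse given cells was above every PBS mouse in both. Cd2 missed the threshold in both (1.91 ± 0.57, adjusted p = 0.474, and 1.68 ± 0.58, adjusted p = 0.105).

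These calls against PBS rest on the spread estimated over all 7 groups and on the 4 PBS mice. Fitted on the 2 groups alone, on the same genes, 0 of the 3 calls in MSC mice and 0 of the 5 in IL-4 MSC mice passed, with adjusted p of 0.0976 to 0.545 and 0.162 to 0.176 by edgeR (unadjusted p of 5.70e-06 to 0.000223 and 8.13e-05 to 0.00131). This fit was chosen after seeing the data. Without PBS mouse 0 the calls of Cd3e (2.21, adjusted p = 0.102) and Cd3g (3.97, adjusted p = 0.0698) in MSC mice were lost, as were those of Cd3e (1.78, adjusted p = 0.0763) and Cd8b1 (2.82, adjusted p = 0.0565) in IL-4 MSC mice. Without PBS mouse 2 the same held for Cd3e (2.25, adjusted p = 0.0868) and Cd3g (3.90, adjusted p = 0.0586) in MSC mice and for Cd3e (1.82, adjusted p = 0.056) in IL-4 MSC mice. Cd3e in MSC mice was also lost without PBS mouse 1 (adjusted p = 0.0504) or MSC mouse 4 (2.08, adjusted p = 0.0557).

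Between IL-4 MSC and MSC mice at 3 wpi only Cd4 passed, beside 2.29% of all genes higher. Cd8a differed by -0.25 ± 0.22 (adjusted p = 0.616) on the log2 scale, Cd3e by -0.43 ± 0.32 (adjusted p = 0.52), Cd3g by -0.09 ± 0.40 (adjusted p = 0.941) and Cd8b1 by 0.09 ± 0.44 (adjusted p = 0.948). The mice of both groups overlapped for each of these 4 genes.

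From 1 to 3 wpi, 5 of the 9 genes rose in MSC mice (Cd3e, Cd3g, Cd8a, Cd8b1 and Cd2), where 1.22% of all genes did. Cd8a went from 0.531, 0.724, 0.495, 0.654 and 0.539 CPM to the values above, without overlap, by 1.69 ± 0.25 (adjusted p = 2.65e-05) on the log2 scale. Cd3e rose by 1.91 ± 0.38 (adjusted p = 0.00113), Cd3g by 2.24 ± 0.50 (adjusted p = 0.00387), Cd8b1 by 2.60 ± 0.58 (adjusted p = 0.0039) and Cd2 by 2.30 ± 0.56 (adjusted p = 0.0085). Cd2 alone of these missed the threshold on the 2 groups alone, on the same genes (2.30, adjusted p = 0.0649). In IL-4 MSC mice 4 of the 9 rose (Cd8a, Cd8b1, Cd3g and Cd4), beside 16.4% of all genes, and Cd4 was not called with DESeq2, its size factors, no filter on low counts or a replicate block (log2 fold changes of 1.24 to 1.38, adjusted p of 0.054 to 0.0749). Cd8a rose by 0.97 ± 0.24 (adjusted p = 0.00194) and Cd8b1 by 1.91 ± 0.52 (adjusted p = 0.0047), the latter from 0.211, 0.251, 0.289, 0.0777 and 0 CPM. Cd3g rose by 1.31 ± 0.45 (adjusted p = 0.0241) and lost this call without IL-4 MSC mouse 0, 3 or 4 of 1 wpi or mouse 0, 2 or 4 of 3 wpi (log2 fold changes of 1.18 to 1.26, adjusted p of 0.0537 to 0.062). Cd2, already high at 1 wpi in these mice, differed by -0.23 ± 0.43 (adjusted p = 0.73) and Cd3e by 0.47 ± 0.35 (adjusted p = 0.321).

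In PBS mice no member passed between the times, beside 0.613% of all genes higher. By edgeR 0 had an unadjusted p under 0.05 and DESeq2 called 0. Whether the difference from PBS itself changed between the times was tested by an interaction term. For MSC mice no member passed, beside 0% of all genes, while 5 members had an unadjusted p under 0.05 by edgeR. For IL-4 MSC mice no member passed, beside 0.788% of all genes higher, and 3 had an unadjusted p under 0.05. DESeq2 called 0 members in either. Cd8a had interaction estimates of 1.67 ± 0.39 (adjusted p = 0.372) and 0.95 ± 0.38 (adjusted p = 0.168) on the log2 scale. A larger difference from PBS at 3 wpi than at 1 wpi thus did not hold up for any of the 9 genes after adjustment.

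The coreceptor genes of the CD8 and the CD4 side had different patterns. Cd4 was at 0.546, 0.474, 4.02, 5.13 and 5.43 CPM in Sham mice, and at 11.3, 1.74, 12.1, 19.1 and 15.2 CPM in IL-4 MSC mice of 3 wpi. In MSC mice of 3 wpi it was at 1.97, 1.61, 2.73, 4.27 and 1.27 CPM, within the Sham range. So 4 of the 5 IL-4 MSC mice were above all mice of the other groups, and mouse 1 was not. The fitted log2 fold changes of IL-4 MSC mice at 3 wpi were 1.95 ± 0.56 against Sham (adjusted p = 0.043), 2.81 ± 0.65 against PBS (adjusted p = 0.0142) and 2.34 ± 0.58 against MSC (adjusted p = 0.0203). Its value was 1.86 ± 0.62 in IL-4 MSC mice against PBS at 1 wpi (adjusted p = 0.0346) and 1.38 ± 0.54 from 1 to 3 wpi (adjusted p = 0.0497).

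Leaving out 1 mouse ended each of these 5 calls of Cd4 in several fits. Against Sham at 3 wpi they were the fits without Sham mouse 0, 1 or 2 or IL-4 MSC mouse 0, 2, 3 or 4 (log2 fold changes of 1.66 to 2.06, adjusted p of 0.0633 to 0.126). Against PBS at 3 wpi they were those without PBS mouse 0, 1 or 2 or IL-4 MSC mouse 3 (2.57 to 2.71, adjusted p of 0.0526 to 0.0799), and against MSC those without MSC mouse 1 or 4 or IL-4 MSC mouse 3 or 4 (2.10 to 2.24, adjusted p of 0.0616 to 0.101). At 1 wpi they were those without PBS mouse 1, 2 or 3 or IL-4 MSC mouse 1, 2 or 3 (1.72 to 1.90, adjusted p of 0.0571 to 0.0858), and between the times all but the fit without IL-4 MSC mouse 1 of 3 wpi (1.12 to 1.52, adjusted p of 0.057 to 0.162). Against the week 3 Sham mice alone Cd4 did not pass either (1.28, adjusted p = 0.279).

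The level of Cd4 moved with that of striatal genes, mouse by mouse. Over the 34 libraries, Cd4 correlated with the mean log2 CPM of the 13 striatal markers at Pearson r = 0.972 (Spearman rho = 0.978), at r = 0.968 without the 2 libraries farthest from the median, and at r = 0.966 on deviations from group means. These points share the libraries and their scaling, and the values are a description. Adora2a, Ppp1r1b, Sh3rf2 and Pde10a were among the genes whose levels were most like that of Cd4 over the 34 libraries, with rho of 0.972 to 0.976, and 3 of these 4 are among the 13 markers. The 2 Sham mice of week 1, with Cd4 at 0.546 and 0.474 CPM, had striatal means of 3.93 and 3.95 log2 CPM, and the 3 of week 3, with Cd4 at 4.02 to 5.43 CPM, had means of 5.58 to 5.87. IL-4 MSC mouse 1 of 3 wpi, the one with low Cd4, had a mean of 4.66 and the other 4 mice means of 6.64 to 7.47.

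With the striatal mean as a covariate, the log2 fold changes of Cd4 in IL-4 MSC mice of 3 wpi became -0.08 (adjusted p = 0.942) against Sham, -0.14 (adjusted p = 0.985) against PBS and -0.28 (adjusted p = 0.751) against MSC. Against PBS at 1 wpi it became 0.52 (adjusted p = 0.0664), and from 1 to 3 wpi -0.53 (adjusted p = 0.0231), now lower. IL-4 MSC mice of 1 wpi against Sham, not called without the covariate, became 0.45 (adjusted p = 0.031). Of the 13 markers, 11 were higher in IL-4 MSC mice of 3 wpi than in Sham, 13 than in PBS and 12 than in MSC mice, and 11 rose from 1 to 3 wpi. Of all genes, 2.76%, 2.17%, 2.29% and 16.4% were higher in these comparisons, in the same order. The share of the dissected tissue that was striatum was not measured, and its part in the level of Cd4 was tested only through this covariate.

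Cd8a and Cd3e had no such relation. Cd8a correlated with the striatal mean at r = 0.259 over the 34 libraries and at r = -0.257 on deviations from group means, and Cd3e at 0.204 and -0.252. Cd8a correlated with Cd3e at r = 0.797 (rho = 0.778, r = 0.783 without the 2 libraries farthest from the median), but at 0.117 on deviations from group means, weaker within groups than between them. Cd3g (0.825), Cd2 (0.772), Cd8b1 (0.73) and Lck (0.724) also correlated with Cd3e over the libraries, and Cd3d (0.423), Cd4 (0.272) and Cd247 (0.254) less. With the striatal covariate, Cd8a kept its calls at 3 wpi against Sham and against PBS in both cell treatments. In IL-4 MSC mice those of Cd3e and Cd8b1 against PBS and of Lck against Sham were lost, although the log2 fold changes grew. Cd3e went from 1.91 to 2.33 (adjusted p = 0.147), Cd8b1 from 2.83 to 3.19 (adjusted p = 0.191) and Lck from 0.57 to 0.69 (adjusted p = 0.0928). The covariate itself differed between these groups, with a mean of 6.48 log2 CPM in IL-4 MSC mice, 4.62 in PBS mice and 5.01 in Sham.

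**Figure D3:**
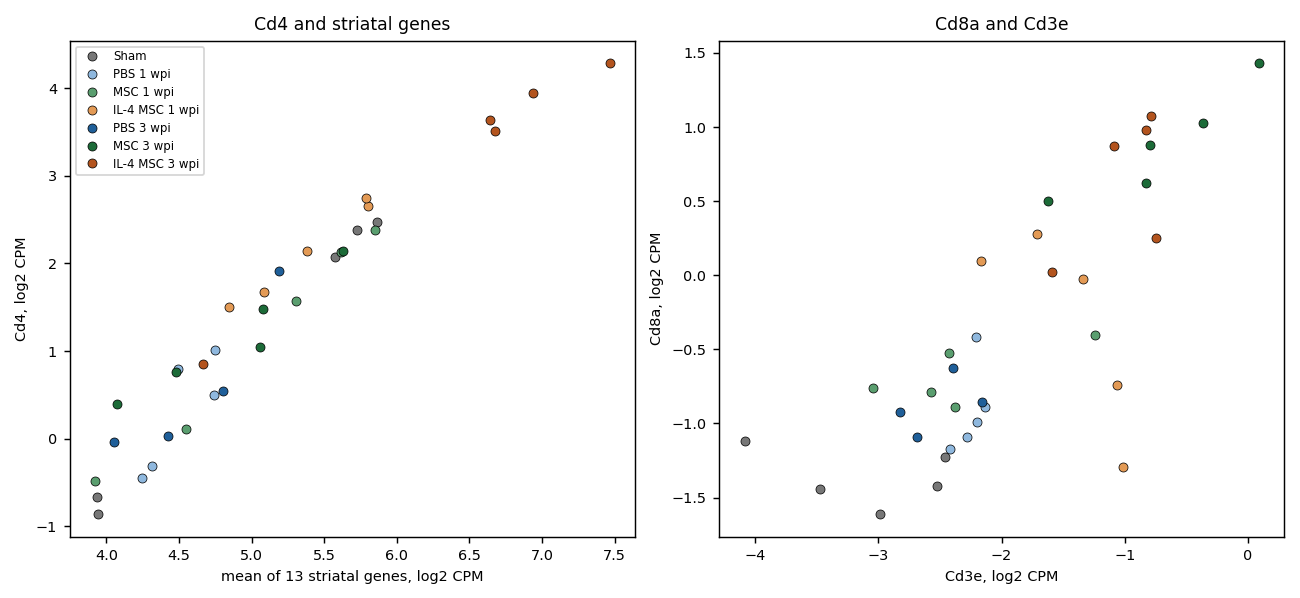
Left, Cd4 (log2 CPM, vertical axis) against the mean log2 CPM of 13 striatal genes (horizontal axis), and right, Cd8a against Cd3e (both log2 CPM), 1 point per mouse, coloured by group (n = 34). Cd4 follows the striatal genes across and within groups (r = 0.972), and Cd8a follows Cd3e across groups (r = 0.797).

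The ratio of Cd8a to Cd4 within each mouse was compared directly, as log2 of both CPM values with 0.05 CPM added. Cd4 moved with the striatal genes (r = 0.972), and the cells behind its level were not measured. The ratio is thus not read here as a balance of CD8 and CD4 T cells. Sham mice with striatal means of 3.93 and 3.95 had ratios of -0.72 and -0.34, and those with means of 5.58 to 5.87 had -3.84 to -3.60. It was -2.44 ± 1.75 in Sham (SD, n = 5), -1.22 ± 0.67 in PBS, -1.81 ± 1.35 in MSC and -2.49 ± 0.84 in IL-4 MSC mice of 1 wpi. At 3 wpi it was -1.49 ± 0.96 in PBS (n = 4), -0.28 ± 1.03 in MSC and -2.61 ± 1.60 in IL-4 MSC mice. MSC mice of 3 wpi thus had the highest mean, with individual values of -0.17, 0.25, -0.86, -1.65 and 1.03, and overlapped with Sham, whose values were -0.72, -0.34, -3.70, -3.84 and -3.60. In IL-4 MSC mice of 3 wpi, mouse 1 (0.03) stood above the other 4 (-4.26 to -2.57). By two-sided exact permutation tests over the 15 comparisons none passed after Benjamini-Hochberg adjustment, and 2 had an unadjusted p under 0.05. IL-4 MSC against MSC at 3 wpi differed by -2.33 (exact p = 0.0317, adjusted p = 0.298) and IL-4 MSC against PBS at 1 wpi by -1.26 (exact p = 0.0397, adjusted p = 0.298). MSC against Sham at 3 wpi differed by 2.16 (exact p = 0.0635, adjusted p = 0.298). The smallest exact p that 5 against 5 mice allow is 0.00794, and 5 against 4 allow 0.0159.

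**Figure D4:**
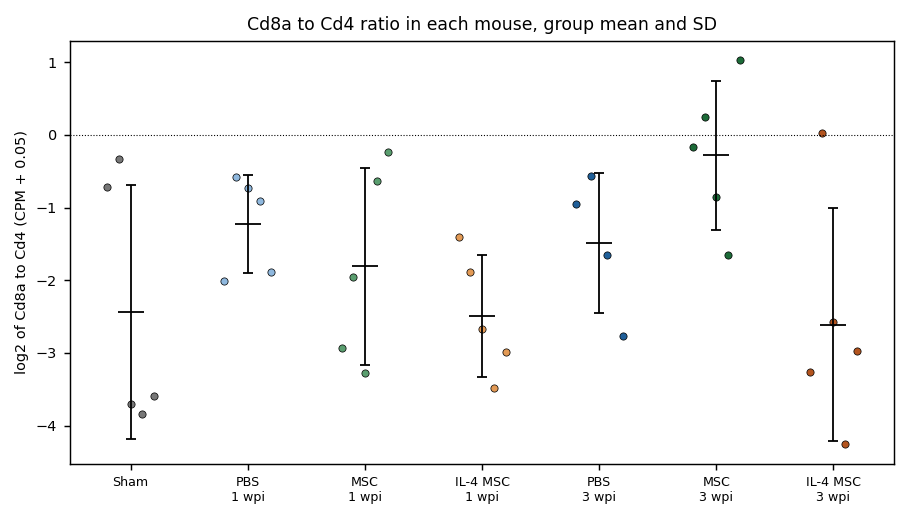
Log2 ratio of Cd8a to Cd4 (vertical axis, CPM with 0.05 added to both) in every mouse (points) of the 7 groups, with group mean and SD (n = 5, PBS 3 wpi n = 4). MSC mice of 3 wpi have the highest mean, -0.28, and no difference between groups passed the exact test after adjustment. Cd4 moved with the striatal genes (r = 0.972) and the cells behind its level were not measured. The ratio is thus not read as a balance of T cells.

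Genes of the wider receptor pathway, from lists made for this work, were read in the same fits. Of the constant regions of the receptor chains, 7 of 10 listed were in the table and 4 were tested. Trac, of the alpha chain, was higher in MSC mice of 3 wpi than in Sham (log2 fold change 0.94 ± 0.23, adjusted p = 0.0288) and rose from 1 to 3 wpi in MSC mice (1.26 ± 0.23, adjusted p = 0.000548), on a Sham level of 0.523 to 0.914 CPM. It did not pass in IL-4 MSC mice of 3 wpi against Sham (0.18 ± 0.24, adjusted p = 0.751) and was lower than in MSC mice (-0.77 ± 0.22, adjusted p = 0.0499). Trbc1 and Trbc2 are near-identical copies that can exchange reads, so both are uncertain. Trbc1 was higher in IL-4 MSC mice of 1 wpi than in Sham (4.39 ± 1.01, adjusted p = 0.00082), and Trbc2 was not (-0.17 ± 0.17, adjusted p = 0.487).

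Of 30 genes that act with the receptor in signalling, 29 were tested. In Sham the 30 genes summed to 789 to 957 CPM, a high level in uninjured brain. Against Sham at 1 wpi, 4 were higher in PBS and 5 in MSC mice and none lower, beside 8.73% and 11% of all genes higher. In IL-4 MSC mice of 1 wpi 13 were higher and 2 lower, where 18.4% of all genes were higher and 18.5% lower, with a median log2 fold change of 0.53 against -0.02 over all genes. Vav1, Fyb, Ptprc and Lcp2, which other white blood cells also use, had the smallest p-values. At 3 wpi 8 were higher in MSC mice (median 0.28 against 0.00 over all genes) and 2 in IL-4 MSC mice (median 0.26 against 0.01), none lower, beside 1.11% and 2.76% of all genes higher and 0.035% and 1.52% lower. In MSC mice these included Sh2d2a, an adaptor of Lck (1.93 ± 0.37, adjusted p = 0.00416), Grap2, an adaptor that binds the scaffold of the receptor (1.37 ± 0.32, adjusted p = 0.0196), Ptprc and Fyb. Those of IL-4 MSC mice were Grap2 (1.55 ± 0.31, adjusted p = 0.00441) and the costimulator Icos (1.99 ± 0.45, adjusted p = 0.00954). Against PBS at 3 wpi, 1 gene was higher in MSC mice (Sh2d2a, 2.05 ± 0.40, adjusted p = 0.0232) and 3 in IL-4 MSC mice (Grap2, Icos and Lat). Sh2d2a was lower in IL-4 MSC than in MSC mice of 3 wpi (-1.26 ± 0.34, adjusted p = 0.0353). From 1 to 3 wpi in IL-4 MSC mice 10 of the 29 fell and 2 rose, where 16.6% of all genes fell.

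Among the comparisons with Sham given next, the list of genes that accompany CD8 cells had its most calls in IL-4 MSC mice of 1 wpi. Of 8 listed, 6 were tested, and 5 were higher than Sham in IL-4 MSC mice of 1 wpi, 2 each in PBS and MSC mice of 1 wpi, 2 in MSC mice and 3 in IL-4 MSC mice of 3 wpi, none lower. Of all genes, 18.4%, 8.73%, 11%, 1.11% and 2.76% were higher in these comparisons, in the same order. Ccl5, a chemokine of activated T and natural killer cells, was at 0 to 0.144 CPM in Sham and 2.91 to 8.06 CPM in IL-4 MSC mice of 1 wpi. At 3 wpi it was at 0.621 to 2.9 CPM in MSC mice and 0.376 to 1.28 CPM in IL-4 MSC mice. Nkg7, a granule protein of cytotoxic cells, was at 0 to 0.061 CPM in Sham, 0.326 to 0.652 CPM in IL-4 MSC mice of 1 wpi and 0.0327 to 0.747 CPM in MSC mice of 3 wpi. Ccl5 and Nkg7, this low in Sham, passed the filter through groups in which they were higher, so the counts called lean on such genes. From 1 to 3 wpi in IL-4 MSC mice, 3 of the 6 fell, beside 16.6% of all genes: Runx3 (-2.76 ± 0.25, adjusted p = 3.80e-10), Ccl5 (-2.52 ± 0.34, adjusted p = 6.15e-07) and Klrk1 (-1.75 ± 0.53, adjusted p = 0.0108), while Cd8a and Cd8b1 rose. Natural killer markers fell over the same interval in 3 of 4 tested genes, a count that leans on the filter as at 1 wpi. The sums of these markers at 3 wpi were 0.549 to 1.61 CPM in MSC mice and 0.661 to 1.11 CPM in IL-4 MSC mice, beside 0.619 to 0.885 CPM in Sham, and none of the 4 was called against Sham.

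Of 8 genes that accompany CD4 cells, 6 were tested, and 3 (Zbtb7b, Icos and Il2ra) were higher than Sham in IL-4 MSC mice of 1 wpi, none in MSC mice and 1 (Icos) in IL-4 MSC mice of 3 wpi. In PBS and MSC mice of 1 wpi none was called. Of all genes, 18.4% were higher than Sham in IL-4 MSC, 8.73% in PBS and 11% in MSC mice of 1 wpi. At 3 wpi 1.11% were higher in MSC and 2.76% in IL-4 MSC mice. Zbtb7b, a factor of the CD4 lineage, was higher in IL-4 MSC mice of 1 wpi (0.38 ± 0.08, adjusted p = 0.000178). In Sham the 8 listed genes summed to 185 to 344 CPM, so the list holds genes with a high level in uninjured brain. The cells behind these changes were not tested. Of 16 T cell identity genes, some of them also on the lineage lists, 15 were tested. In Sham the 16 genes summed to 674 to 687 CPM, again a high level in uninjured brain. The shares of all genes higher are those given for the CD4 genes, and 18.5% were lower in IL-4 MSC mice of 1 wpi. Against Sham, 9 were higher and 1 lower in IL-4 MSC mice of 1 wpi. In PBS and in MSC mice of 1 wpi 2 were higher each, near the shares of all genes. At 3 wpi 2 were higher in MSC mice (Ccr7 and Tbx21) and 3 in IL-4 MSC mice (Eomes, Bcl11b and Tcf7). Bcl11b is also a factor of striatal projection neurons, whose markers were higher in the same mice. The part of striatal tissue in its level was not tested.

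Over the 34 libraries, the 5 genes most like Cd3e by Spearman correlation of log2 CPM were Cxcr6 (0.804), Gimap3 (0.803), Grap2 (0.767), Nkg7 (0.759) and Il2rb (0.743). Those most like Cd8a were Gimap3 (0.801), Cxcr6 (0.726), Ms4a4b (0.709), Nkg7 (0.687) and H2-Q6 (0.677). Cxcr6, a chemokine receptor, Gimap3, a lymphocyte GTPase, and Nkg7 were on both lists, and none of them was a striatal marker. H2-Q6 has close copies that can exchange reads and is uncertain. On deviations from group means these correlations ran from -0.0469 to 0.568, against 0.936 to 0.961 for the 4 genes named as like Cd4.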

How the data were processed

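Brain RNA of 34 mice was analysed. Per the labels and methods, the authors trimmed reads with cutadapt 2.4, checked them with FastQC 0.11.8 and quantified transcripts with kallisto 0.46, and deposited estimated counts and TPM per gene. Estimated counts were rounded and fitted with edgeR 4.0.16 (quasi-likelihood test, TMM, filterByExpr with a minimum count of 10) over all 7 groups, two-sided, with Benjamini-Hochberg adjustment over the 17131 genes tested and a threshold of 0.05. The SE is the size of the log2 fold change divided by the root of its F statistic, and log2 CPM used a prior count of 2. Exact intervals cover counting error only. The Cd8a to Cd4 ratio was compared by exact permutation tests (scipy 1.17.1). DESeq2 1.42.0 was an alternative. Named were all 9 members, at most 4 genes of each other list, those with the smallest unadjusted p in the comparison described, and the 5 genes most like Cd3e, Cd8a and Cd4, of which 1 is not reported here. Members and lists were chosen with earlier results of these data known. The edgeR p-values weigh a difference against the spread between mice, estimated over all 7 groups and with information shared between genes.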

Additional observations from a re-analysis of the deposited data

Results flagged for a closer look

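In 70 groups of values (9 genes and the Cd8a to Cd4 ratio in 7 groups) 5 had a single mouse far from the others by Dixon's criterion, and chance gives about 1 in 20. All 5 were low values, given here as log2 CPM. Cd3d in MSC mouse 0 of 3 wpi was at 0.88 against 1.58 to 1.70 in the other 4 mice. Cd4 in IL-4 MSC mouse 1 of 3 wpi was at 0.85 against 3.52 to 4.28, and this mouse also had the lowest striatal mean of its group. IL-4 MSC mouse 3 of 3 wpi was low in both Cd3g (-2.36 against -0.91 to -0.50) and Cd2 (-2.83 against -1.51 to -1.13). Cd2 in PBS mouse 1 of 3 wpi was at -3.45 against -2.69 to -2.56, with 1 count against 4, 4 and 3.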

How the results depend on the processing

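Of the 39 calls, 38 held with DESeq2, 38 with its size factors, 38 without a filter on low counts, 38 with a replicate block (Cd4 from 1 to 3 wpi in IL-4 MSC mice was lost in each), 32 with the striatal covariate and 26 on the 2 groups alone with the genes of the 7-group filter, a setting chosen after seeing the data. Of the 18 calls against Sham, 16 held with Sham of the same week. On the 2 groups with their own filter only 20 of the 39 were tested and 9 held. In MSC mice of 1 wpi against Sham the members called went from 0 to 1 with the replicate block, with the covariate, with Sham of the same week, with DESeq2 and on the 2 groups alone, and to 2 with the genes of the 7-group filter. With the covariate they became 4 in IL-4 MSC against PBS at 1 wpi, and at 3 wpi 2 against PBS and 0 against MSC. On the 2 groups alone with their own filter, they were 2 in IL-4 MSC of 1 wpi and 1 in both cell treatments of 3 wpi against Sham, 1 against PBS and 0 against MSC in IL-4 MSC of 1 wpi, and 2 from 1 to 3 wpi in both. At 3 wpi they were 0 in MSC and 0 in IL-4 MSC against PBS and 0 between the 2 cell treatments, with either filter. With the covariate Cd4 became -0.078 (adjusted p = 0.942) against Sham, -0.14 (adjusted p = 0.985) against PBS, -0.28 (adjusted p = 0.751) against MSC and -0.53 (adjusted p = 0.0231) from 1 to 3 wpi in IL-4 MSC mice of 3 wpi, and Cd8a against MSC 0.040 (adjusted p = 0.986), by edgeR. With Cd8b1 in place of Cd8a the ratio in IL-4 MSC mice of 3 wpi differed by 0.476 from Sham, 0.0862 from PBS and 0.778 from 1 wpi, each with the other sign. The causes were not tested.

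Without 1 mouse the members called ranged over 0 to 1 (MSC against Sham at 1 wpi), 1 to 3 and 1 to 2 (IL-4 MSC against PBS and MSC at 1 wpi), 1 to 3 and 2 to 5 (MSC and IL-4 MSC against PBS at 3 wpi), 0 to 1 (IL-4 MSC against MSC at 3 wpi) and 2 to 4 (IL-4 MSC, 3 against 1 wpi). The ratio changed sign within -0.400 to 0.476 and -0.831 to 0.354 (IL-4 MSC against Sham at 1 and 3 wpi), -0.569 to 0.165 (PBS, 3 against 1 wpi) and -0.782 to 0.29 (IL-4 MSC, 3 against 1 wpi). Mice with the same replicate number gave no sign of pairing. Over 99 pairs the median correlation of their deviations from group means was 0.0227, against -0.00156 over 396 pairs with different numbers. With the replicate block the members called were 6 in MSC and 3 in IL-4 MSC mice from 1 to 3 wpi, 1 in MSC mice of 1 wpi against Sham, and as in the fit without it elsewhere. At this depth Cd3e, Cd3g, Cd8b1 and Cd2 rest on few counts.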

Other observations

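Lists of other cells, not described above, were compared with Sham in the same way. The counts called are given in the order PBS, MSC and IL-4 MSC mice of 1 wpi and then MSC and IL-4 MSC mice of 3 wpi, and no gene of these lists was called in PBS mice of 3 wpi. Of all genes tested 8.73%, 11%, 18.4%, 1.11% and 2.76% were higher and 5.03%, 6.89%, 18.5%, 0.035% and 1.52% lower in these comparisons. Of 10 microglia markers 8, 9, 8, 1 and 4 were higher and none lower. Of 10 border macrophage markers 3, 4, 8, 0 and 1 were higher and none lower (Ms4a7 in IL-4 MSC mice of 3 wpi, 1.55 ± 0.34, adjusted p = 0.00827). Of 8 dendritic cell markers 1, 1, 3, 0 and 1 were higher and 0, 0, 1, 0 and 1 lower. Of 4 B cell markers tested of 8 listed, 0, 0, 1, 0 and 0 were higher and none lower (Cd79b in IL-4 MSC mice of 1 wpi, 1.74 ± 0.41, adjusted p = 0.000888).

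Of 10 neuron markers 5, 5, 8, 0 and 1 were lower and none higher. Of 10 cortex markers 3, 0, 5, 0 and 0 were lower and none higher. Of 10 hippocampus markers 0, 0, 1, 0 and 2 were lower and none higher, with sums of 289 to 406 CPM in Sham and 194 to 394 CPM in IL-4 MSC mice of 3 wpi.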
